A study of Mus musculus with 8 samples.

Results

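The G1 cyclins, the cyclin-dependent kinases (CDKs) that bind them and 2 of the CDK inhibitors were followed as 10 genes: Ccnd1, Ccnd2, Ccnd3, Ccne1, Ccne2, Cdk2, Cdk4, Cdk6, Cdkn1b and Cdkn2c. They were picked by symbol, and all 10 were found among the 56748 genes of the deposited expression table. A gene was tested when its level reached 1 FPKM (fragments per kilobase of gene, scaled to the library total) in at least 2 of the 8 libraries, which 9 of the 10 genes and 11818 genes in all did. Ccnd1 did not reach it in any library.

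The libraries came from 32D, a mouse myeloid cell line that needs interleukin-3 (IL-3) to grow. The cells carried transduced murine Jak2WT or Jak2V617F, the latter a JAK2 kinase that signals without cytokine. In each background, clones with intact glucose transporters (GLUT1/3 WT) were compared with clones in which CRISPR-Cas9 had disrupted both Slc2a1 and Slc2a3, which encode GLUT1 and GLUT3 (GLUT1/3 dKO). Each of the 4 groups held 2 libraries, from clones 1 and 3, and all clones had spent 24 h in RPMI medium with serum and reduced supplements, which held glucose at 5 mM, glutamine at 1 mM, IL-3 at 2 ng/ml and no pyruvate. Each library is a single clone, so the tests below measure the spread between clones. An effect of the edit and a property of the picked clones cannot be told apart. Per the study's methods, the cells went through single-cell dilution before editing, so clones of a background may share a parent. An effect of Jak2V617F and a property of the line therefore cannot be told apart either. The dKO clones of a background also share a Slc2a1 deletion of the same size.

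Poly-A RNA gave 16846011 to 48884329 reads on genes per library. Slc2a1 lay at 44.7 and 48.4 FPKM in the Jak2WT GLUT1/3 WT clones and at 9.47 and 9.17 in the Jak2WT dKO clones, and at 64.0 and 53.0 against 17.3 and 12.7 in Jak2V617F. Slc2a3 lay at 97.7 and 91.9 against 16.0 and 49.5 FPKM in Jak2WT and at 198 and 166 against 48.2 and 23.8 in Jak2V617F, and its fall in Jak2WT did not pass the test (limma adjusted p = 0.0612). Jak2, whose transduced and native transcripts share 1 row, lay at 218 to 258 FPKM in Jak2WT and at 139 to 165 in Jak2V617F libraries. Of 9 myeloblast and promyelocyte markers, 5 reached 1 FPKM in each group, among them Csf2rb, Spi1 and Ptprc, while Mpo, Elane and Cebpa lay at or near 0 in all 8 libraries.

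In early G1, the D-type cyclins bind CDK4 and CDK6 and begin to phosphorylate the retinoblastoma protein, RB. E-type cyclins then bind CDK2, complete that phosphorylation and free the E2F factors, which switch on the genes of DNA replication, Ccne1 and Ccne2 among them. The product of Cdkn1b, p27Kip1, binds and inhibits cyclin E-CDK2 complexes, and that of Cdkn2c, p18Ink4c, binds CDK4 and CDK6 and keeps D-type cyclins off them. In blood cells, cytokine signals act on this step through the D-type cyclins and p27Kip1, and Ccnd2 and Cdk6 are expressed in many haematopoietic cells.

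The promoters of 4 members are shown because these genes formed the pairs with the highest correlation between members: Ccne1 with Cdk2 (Pearson r = 0.966 of log2(FPKM + 1)) and Cdk4 with Cdk6 (r = 0.932). Both are descriptions over 8 libraries that share their groups. Sequences are those of RefSeq on GRCm38.p6, from 250 bases before to 50 bases after the annotated start, 5′ to 3′ on the strand of the gene, and capitals mark any match to the motifs named next.
Ccne1, chr7:38107441-38107740, reverse strand: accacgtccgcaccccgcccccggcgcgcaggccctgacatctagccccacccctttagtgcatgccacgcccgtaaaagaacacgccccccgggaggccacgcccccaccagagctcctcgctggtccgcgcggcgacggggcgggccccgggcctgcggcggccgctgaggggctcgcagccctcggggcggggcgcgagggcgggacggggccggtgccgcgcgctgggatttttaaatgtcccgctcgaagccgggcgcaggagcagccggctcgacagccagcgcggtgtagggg
Cdk2, chr10:128705002-128705301, reverse strand: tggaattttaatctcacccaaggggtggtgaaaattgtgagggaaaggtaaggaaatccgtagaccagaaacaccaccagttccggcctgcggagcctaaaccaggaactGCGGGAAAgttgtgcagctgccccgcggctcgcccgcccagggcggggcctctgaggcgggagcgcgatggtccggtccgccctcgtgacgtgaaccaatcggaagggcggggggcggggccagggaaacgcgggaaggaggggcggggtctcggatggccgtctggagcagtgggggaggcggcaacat
Cdk4, chr10:127063285-127063584, forward strand: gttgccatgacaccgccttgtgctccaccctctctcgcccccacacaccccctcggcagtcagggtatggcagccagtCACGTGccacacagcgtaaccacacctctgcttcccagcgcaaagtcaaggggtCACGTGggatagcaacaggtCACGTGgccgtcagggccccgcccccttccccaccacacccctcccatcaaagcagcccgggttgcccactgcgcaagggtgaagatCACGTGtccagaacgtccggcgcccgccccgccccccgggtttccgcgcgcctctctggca
Cdk6, chr5:3343643-3343942, forward strand: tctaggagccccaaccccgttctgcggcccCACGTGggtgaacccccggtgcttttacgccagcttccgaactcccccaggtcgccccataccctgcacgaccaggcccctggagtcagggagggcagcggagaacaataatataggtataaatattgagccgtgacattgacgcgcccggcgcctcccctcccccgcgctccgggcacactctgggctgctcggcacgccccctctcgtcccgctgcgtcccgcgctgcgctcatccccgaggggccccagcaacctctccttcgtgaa

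Motif families were searched on both strands in the 9 promoters of the 7 members that the RefSeq table lists: the E2F words TTTGGCGC, TTTCCCGC, TTTGCCGC and TTTCGCGC, the FOXO word GTAAACA, the E-box CACGTG and the STAT word TTCNNNGAA. The Cdk2 window held 1 E2F word, at -140 on the opposite strand, against 2.26% of all 32851 promoters with such a word. The Cdk4 window held 4 E-boxes, at -172, -118, -98 and -11, and the Cdk6 window held 1, at -220. An E-box stood in 7.15% of all promoters, and 8 promoters (0.0244%) held 4 or more. Among the other members, a promoter of Cdkn2c had an E-box at 35 and a promoter of Ccnd3 had a FOXO word at -243, which 3.65% of all promoters had. No searched word lay in the windows of Ccne1 and Cdkn1b, and no member's window held the STAT word, found in 8.30% of all promoters. A match of letters is not a bound site. Ccnd1, Ccnd2 and Ccne2 have no entry.

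FPKM is scaled to gene length, so that levels could be ordered across genes. In Jak2WT GLUT1/3 WT clones the order from the top was Cdk4 with a mean of 85.6 FPKM, Cdk6 with 66.9, Cdkn1b with 50.8, Ccnd2 with 40.4, Cdkn2c with 26.2, Ccne1 with 17.4, Cdk2 with 15.8, Ccne2 with 12.6, Ccnd3 with 10.5 and Ccnd1 with 0.0723. No neighbours in that order overlapped between clones. In both Jak2V617F groups Ccnd2 stood first, at 66.3 FPKM with intact transporters and 78.1 in the dKO, but its clones overlapped those of Cdk4. In the Jak2V617F dKO the genes from Cdk6 (28.8 FPKM) down to Cdk2 (19.2) overlapped neighbour by neighbour, so that no neighbours among these 7 members could be ordered there.

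**Figure D1:**
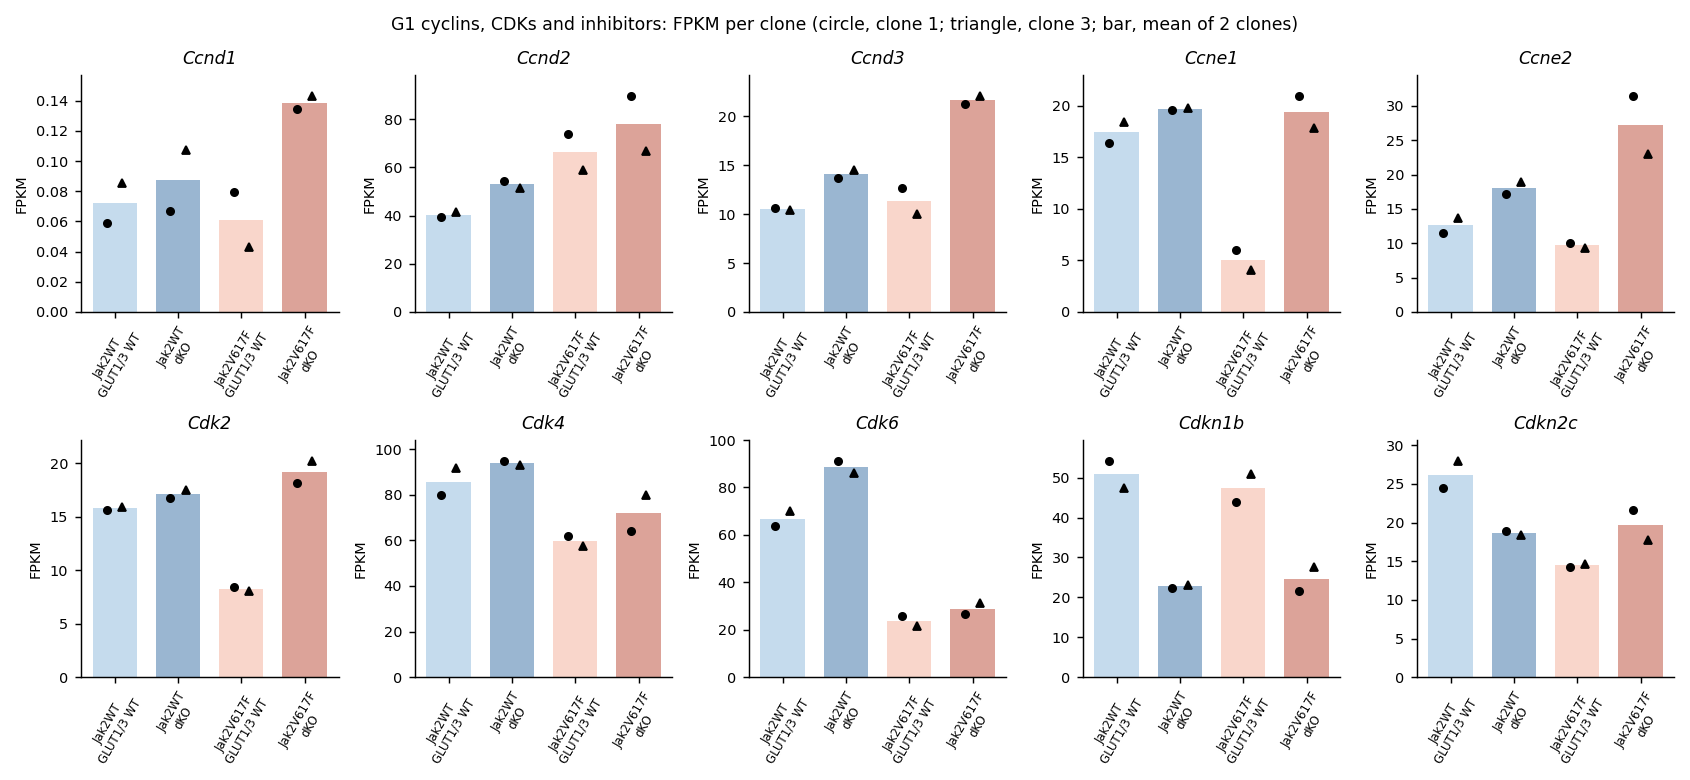
FPKM of the 10 genes in 4 groups, with a linear axis from 0 for each gene; bars are means of 2 clones, circles clone 1 and triangles clone 3. Ccne1 sits at 6.05 and 4.05 in the Jak2V617F GLUT1/3 WT clones and between 16.4 and 20.9 in the other 6 libraries, and Cdkn1b is lower in all 4 dKO libraries than in the 4 with intact transporters.

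Ccnd2 (ENSMUSG00000000184) encodes the D-type cyclin with the highest level here and lies on mm39 chromosome 6, from 127102125 to 127129156 on the reverse strand. It read 39.2 and 41.5 FPKM in Jak2WT GLUT1/3 WT, 54.3 and 51.6 in Jak2WT dKO, 73.6 and 59.0 in Jak2V617F GLUT1/3 WT, and 89.6 and 66.7 in Jak2V617F dKO. All 4 Jak2V617F libraries lay above the 4 Jak2WT ones, while the Jak2V617F groups overlapped each other. With intact transporters it was 1.64-fold higher in Jak2V617F, by 0.70 ± 0.16 on the log2(FPKM + 1) scale (SE, n = 2 clones a group), which passed the test across all genes (limma adjusted p = 0.0147). Differences and SEs below are on this log2 scale, with 2 clones a group and limma p-values adjusted over all 11818 genes. The call was lost without either Jak2WT GLUT1/3 WT clone or without Jak2V617F GLUT1/3 WT clone 1 (limma adjusted p = 0.0620 to 0.0790), and with no filter on low values (limma adjusted p = 0.0560). Among the dKO clones the difference was 0.54 ± 0.16 (limma adjusted p = 0.0539), and GLUT1/3 loss gave 0.38 ± 0.16 in Jak2WT and 0.23 ± 0.16 in Jak2V617F (95% interval -0.14 to 0.59), none of which passed. The difference among dKO clones passed in 7 of 18 alternative settings (limma adjusted p = 0.0178 to 0.198 over the 18), among them voom, libraries scaled to the same total and 3 with a Jak2V617F library left out, and that on GLUT1/3 loss in Jak2WT passed in 1 of 18.

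Ccnd3 (ENSMUSG00000034165), a D-type cyclin used in lymphoid and erythroid cells, lies on chromosome 17 from 47815976 to 47910616, forward strand. Its levels were 10.7 and 10.4 FPKM in Jak2WT GLUT1/3 WT, 13.7 and 14.5 in Jak2WT dKO, 12.7 and 10.0 in Jak2V617F GLUT1/3 WT, and 21.3 and 22.1 in Jak2V617F dKO. The Jak2V617F dKO clones stood above every other library. GLUT1/3 loss raised Ccnd3 1.91-fold in Jak2V617F, by 0.88 ± 0.11 (limma adjusted p = 0.00172), and the difference of 0.39 ± 0.11 in Jak2WT did not pass (limma adjusted p = 0.0584), though it did in 4 of 18 alternative settings. Among dKO clones Ccnd3 was 1.54-fold higher in Jak2V617F, by 0.59 ± 0.11 (limma adjusted p = 0.0126), a call lost without Jak2WT dKO clone 1 or clone 3 (limma adjusted p = 0.0874 and 0.0545). The dKO effects of the backgrounds differed by 0.50 ± 0.15, which did not pass (limma adjusted p = 0.0809) but did in 3 of 17 alternative settings. With intact transporters the backgrounds differed by 0.09 ± 0.11, with a 95% interval of -0.16 to 0.35. The 3' end of Ccnd3 shares 361 bases with Bysl on the other strand, and the strand setting of the counting is not given in the sources used here, so reads there cannot be assigned.

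Ccnd1 (ENSMUSG00000070348, chromosome 7, 144483668 to 144493662, reverse strand), a D-type cyclin prominent in epithelial cells, had 6 to 25 reads per library, or 0.0427 to 0.143 FPKM. LTO1, at 1.97 to 2.62 FPKM, overlaps it by 1771 bases on the other strand. It was not tested, and it made up at most 0.165% of the summed D-type cyclin FPKM.

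Ccne1 (ENSMUSG00000002068, chromosome 7, 37797409 to 37806959, reverse strand) encodes cyclin E1, an activating partner of CDK2. It read 16.4 and 18.4 FPKM in Jak2WT GLUT1/3 WT, 19.6 and 19.8 in Jak2WT dKO, 6.05 and 4.05 in Jak2V617F GLUT1/3 WT, and 20.9 and 17.8 in Jak2V617F dKO. A single group, the Jak2V617F clones with intact transporters, was low, and the ranges of the dKO groups overlapped. Ccne1 was 3.45-fold lower in Jak2V617F than in Jak2WT with intact transporters and fell by 1.62 ± 0.16 on the log2 scale (limma adjusted p = 0.000890). GLUT1/3 loss raised it 3.84-fold in Jak2V617F, by 1.77 ± 0.16 (limma adjusted p = 0.000583), against 0.17 ± 0.16 in Jak2WT (95% interval -0.20 to 0.54). Among dKO clones the difference between backgrounds was -0.02 ± 0.16, with a 95% interval of -0.40 to 0.35. No other listed gene overlaps Ccne1.

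Ccne2 (ENSMUSG00000028212, chromosome 4, 11191351 to 11204779, forward strand) encodes cyclin E2, which also activates CDK2. Its levels were 11.6 and 13.7 FPKM in Jak2WT GLUT1/3 WT, 17.2 and 18.9 in Jak2WT dKO, 10.0 and 9.33 in Jak2V617F GLUT1/3 WT, and 31.4 and 23.0 in Jak2V617F dKO. The Jak2V617F dKO clones were the highest and the Jak2V617F GLUT1/3 WT clones the lowest, with no overlap between any groups. GLUT1/3 loss raised Ccne2 2.81-fold in Jak2V617F, by 1.39 ± 0.15 (limma adjusted p = 0.00114), and the 0.49 ± 0.15 in Jak2WT did not pass (limma adjusted p = 0.0723), though it did in 4 of 18 alternative settings. Its difference between backgrounds did not pass with intact transporters (-0.35 ± 0.15, limma adjusted p = 0.121), where 3 of 19 alternative settings called it. Among dKO clones it passed narrowly, at 0.55 ± 0.15 (limma adjusted p = 0.0455), and 11 of 18 alternative settings ended that call, including leaving out any 1 library other than Jak2V617F dKO clone 3 (limma adjusted p = 0.0646 to 0.210). Ccne2 and Ints8, which lay at 6.95 to 14.7 FPKM, share 5622 bases of their spans on opposite strands.

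Cdk2 (ENSMUSG00000025358, chromosome 10, 128533808 to 128540900, reverse strand), the kinase partner of cyclin E, followed the pattern of Ccne1. It read 15.7 and 15.9 FPKM in Jak2WT GLUT1/3 WT, 16.8 and 17.5 in Jak2WT dKO, 8.45 and 8.08 in Jak2V617F GLUT1/3 WT, and 18.1 and 20.2 in Jak2V617F dKO. The Jak2V617F GLUT1/3 WT clones lay below the other 6 libraries. There it was 1.91-fold lower than in Jak2WT and fell by 0.86 ± 0.08 (limma adjusted p = 0.000747). GLUT1/3 loss raised it 2.32-fold in Jak2V617F, by 1.12 ± 0.08 (limma adjusted p = 0.000383), and gave 0.11 ± 0.08 in Jak2WT (95% interval -0.08 to 0.30). The backgrounds differed by 0.15 ± 0.08 among dKO clones, with a 95% interval of -0.04 to 0.34.

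Cdk4 (ENSMUSG00000006728, chromosome 10, 126899403 to 126903789, forward strand), a kinase partner of D-type cyclins, read 79.8 and 91.5 FPKM in Jak2WT GLUT1/3 WT, 94.6 and 93.0 in Jak2WT dKO, 61.8 and 57.5 in Jak2V617F GLUT1/3 WT, and 63.9 and 79.9 in Jak2V617F dKO. The highest Jak2V617F library reached the lowest Jak2WT one. With intact transporters Cdk4 was 1.44-fold lower in Jak2V617F and fell by 0.51 ± 0.12 (limma adjusted p = 0.0182), a call lost without Jak2WT GLUT1/3 WT clone 3 or without either Jak2V617F GLUT1/3 WT clone (limma adjusted p = 0.0505 to 0.119), and with no filter on low values (limma adjusted p = 0.0577). Among dKO clones the -0.39 ± 0.12 did not pass (limma adjusted p = 0.0711) but did in 2 of 18 alternative settings. GLUT1/3 loss gave 0.13 ± 0.12 in Jak2WT and 0.26 ± 0.12 in Jak2V617F, neither past the threshold, the latter passing in 2 of 18 alternative settings. Cdk4 shares 641 bases with Tspan31 (21.6 to 35.7 FPKM) on the other strand.

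Cdk6 (ENSMUSG00000040274, chromosome 5, 3391485 to 3581008, forward strand), which pairs with the same cyclins, showed the largest difference between backgrounds in the dKO clones among the members. It read 63.6 and 70.2 FPKM in Jak2WT GLUT1/3 WT, 91.0 and 86.2 in Jak2WT dKO, 25.9 and 21.6 in Jak2V617F GLUT1/3 WT, and 26.5 and 31.2 in Jak2V617F dKO. Every Jak2V617F library lay below every Jak2WT library, whether or not the transporters were intact. Cdk6 was 2.82-fold lower in Jak2V617F with intact transporters, where it fell by 1.46 ± 0.12 (limma adjusted p = 0.000472), and 3.07-fold lower among dKO clones, where it fell by 1.59 ± 0.12 (limma adjusted p = 0.000443). Both calls held in every alternative setting. GLUT1/3 loss gave 0.40 ± 0.12 in Jak2WT (limma adjusted p = 0.0639) and 0.27 ± 0.12 in Jak2V617F (limma adjusted p = 0.124), and these effects differed by -0.13 ± 0.17 (95% interval -0.52 to 0.26). The Jak2WT value passed in 2 of 18 alternative settings and the Jak2V617F value in 1 of 18.

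Cdkn1b (ENSMUSG00000003031, chromosome 6, 134897364 to 134902476, forward strand) was the member that fell on GLUT1/3 loss in both backgrounds. It read 54.1 and 47.5 FPKM in Jak2WT GLUT1/3 WT, 22.4 and 23.2 in Jak2WT dKO, 43.8 and 50.9 in Jak2V617F GLUT1/3 WT, and 21.7 and 27.6 in Jak2V617F dKO. The 4 dKO libraries lay below the 4 GLUT1/3 WT libraries, and the backgrounds overlapped in both states. In Jak2WT it was 2.23-fold lower in the dKO and fell by 1.12 ± 0.13 (limma adjusted p = 0.00576). This call was lost only without Jak2WT GLUT1/3 WT clone 1, where it fell by 1.03 (limma adjusted p = 0.0529). In Jak2V617F it was 1.92-fold lower and fell by 0.92 ± 0.13 (limma adjusted p = 0.00299), in every setting past the threshold. The effects in the backgrounds differed by 0.20 ± 0.19 (95% interval -0.24 to 0.64). Between backgrounds the differences were -0.10 ± 0.13 with intact transporters and 0.09 ± 0.13 in the dKO, and the 95% intervals reached from -0.41 to 0.21 and from -0.22 to 0.41.

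Cdkn2c (ENSMUSG00000028551, chromosome 4, 109518073 to 109524386, reverse strand), the inhibitor of CDK4 and CDK6, moved in opposite directions on GLUT1/3 loss. It read 24.4 and 27.9 FPKM in Jak2WT GLUT1/3 WT, 18.9 and 18.4 in Jak2WT dKO, 14.3 and 14.7 in Jak2V617F GLUT1/3 WT, and 21.6 and 17.7 in Jak2V617F dKO. The dKO groups overlapped, while the 2 groups with intact transporters stood apart above and below them. It fell by 0.46 ± 0.11 in Jak2WT (limma adjusted p = 0.0364) and rose by 0.41 ± 0.11 in Jak2V617F (limma adjusted p = 0.0290). With intact transporters it was 1.81-fold lower in Jak2V617F and fell by 0.81 ± 0.11 (limma adjusted p = 0.00260), and among dKO clones the backgrounds differed by 0.06 ± 0.11 (95% interval -0.20 to 0.32). Only the difference with intact transporters passed in every setting. The Jak2WT call was lost without any 1 of the 4 Jak2WT libraries or of the 2 Jak2V617F GLUT1/3 WT libraries (limma adjusted p = 0.0518 to 0.194), with no filter on low values (limma adjusted p = 0.0921) and with the clone number as a replicate block (limma adjusted p = 0.0563). The Jak2V617F call was lost without either Jak2WT dKO clone, either Jak2V617F GLUT1/3 WT clone or Jak2V617F dKO clone 1 (limma adjusted p = 0.0515 to 0.108), with no filter (limma adjusted p = 0.0726) and in a fit of the compared groups alone (limma adjusted p = 0.0929).

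**Figure D2:**
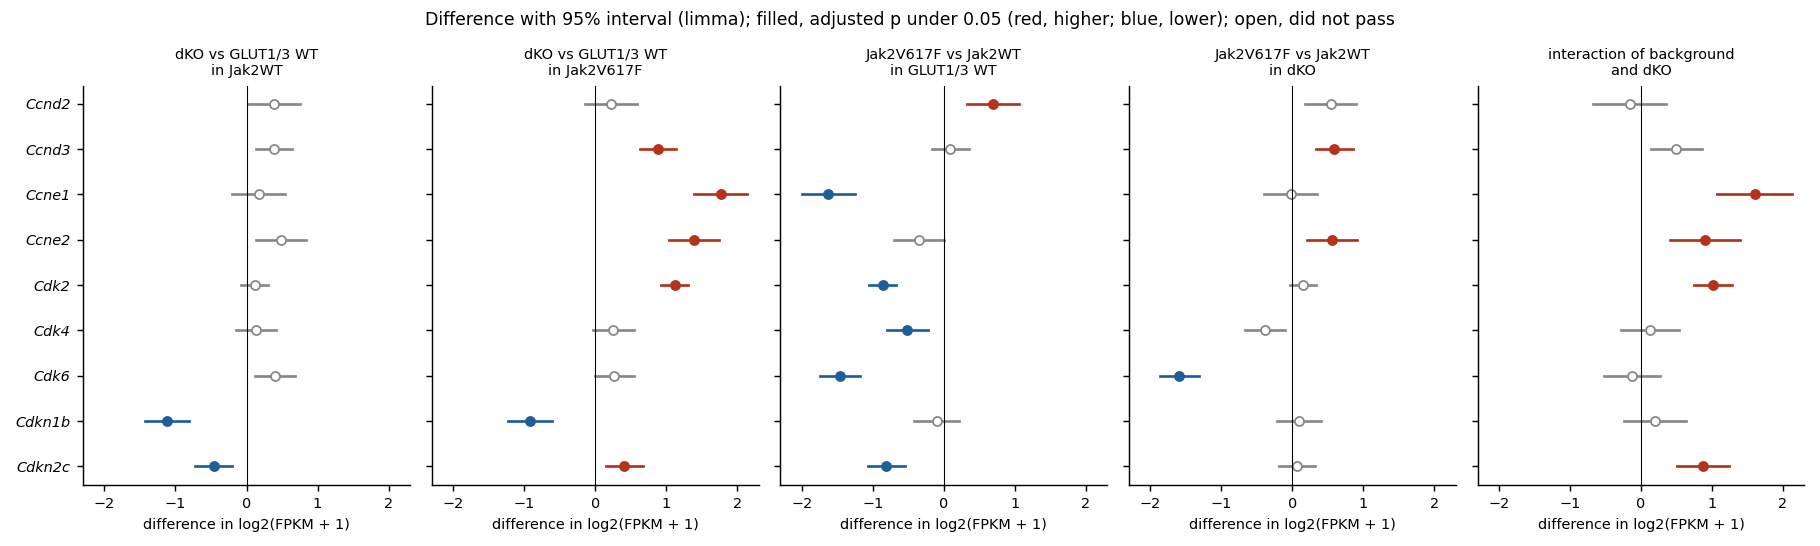
Differences in log2(FPKM + 1) of the 9 tested genes in 5 comparisons, with 95% intervals from limma; filled points passed at an adjusted p under 0.05, red higher and blue lower, and open points did not pass. Cdkn1b is the filled blue point shared by both dKO panels, at -1.12 and -0.92, and Cdk6 that of both background panels, at -1.46 and -1.59.

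The counts in each comparison are read against the share of all tested genes that passed in the same direction. On GLUT1/3 loss in Jak2WT, 0 of 9 members rose (background 7.62%) and 2 of 9 fell (background 6.06%), both of them inhibitors, Cdkn1b and Cdkn2c. At an unadjusted p under 0.05, Ccnd2, Ccnd3, Ccne2 and Cdk6 were higher there, and voom on recovered reads called 5 members, Ccnd3, Ccne2 and Cdk6 besides the inhibitors. On GLUT1/3 loss in Jak2V617F, 5 of 9 rose (background 13.7%), namely Ccne1, Ccne2, Cdk2, Ccnd3 and Cdkn2c, and 1 of 9 fell (background 16.2%), Cdkn1b. The median difference of the 9 members was 0.17 in Jak2WT, against 0.01 over all tested genes, and 0.41 in Jak2V617F, against -0.02.

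In Jak2V617F against Jak2WT with intact transporters, 1 of 9 members was higher (background 15.3%), Ccnd2, and 5 of 9 were lower (background 14.9%), namely Ccne1, Cdk6, Cdk2, Cdkn2c and Cdk4. The members' median was -0.51, against 0.01 over all genes. Among dKO clones 2 of 9 were higher (background 7.12%), Ccnd3 and Ccne2, and 1 of 9 was lower (background 9.96%), Cdk6, with a median of 0.09 against -0.02. GLUT1/3 loss in Jak2V617F and the comparison of backgrounds with intact transporters both use the Jak2V617F GLUT1/3 WT libraries, so a member low in those 2 clones rises in the former and falls in the latter.

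Whether GLUT1/3 loss acted differently in the backgrounds was tested as the interaction, the dKO effect in Jak2V617F minus that in Jak2WT. It passed with a positive value for 4 of 9 members (background 4.72%) and with a negative value for 0 of 9 (background 5.91%). The effect was larger in Jak2V617F by 1.60 ± 0.23 for Ccne1 (limma adjusted p = 0.0130), by 1.01 ± 0.11 for Cdk2 (limma adjusted p = 0.00867), by 0.90 ± 0.21 for Ccne2 (limma adjusted p = 0.0406) and by 0.87 ± 0.16 for Cdkn2c (limma adjusted p = 0.0202). No member had a negative interaction at an unadjusted p under 0.05, and voom called none negative. All 4 calls were lost when Jak2WT GLUT1/3 WT clone 1, Jak2WT GLUT1/3 WT clone 3 or Jak2WT dKO clone 1 was left out, with limma adjusted p = 0.0502 to 0.0570 for Cdk2, 0.0525 to 0.0666 for Ccne1, 0.0604 to 0.0857 for Cdkn2c and 0.0885 to 0.141 for Ccne2. With no filter on low values Cdk2 alone kept its call, and Ccne2 lost its own in 10 of 17 alternative settings and Cdkn2c in 6 of 17. The difference itself stayed between 1.36 and 1.84 for Ccne1 and between 0.93 and 1.18 for Cdk2 in all 17 alternative settings.

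**Figure D3:**
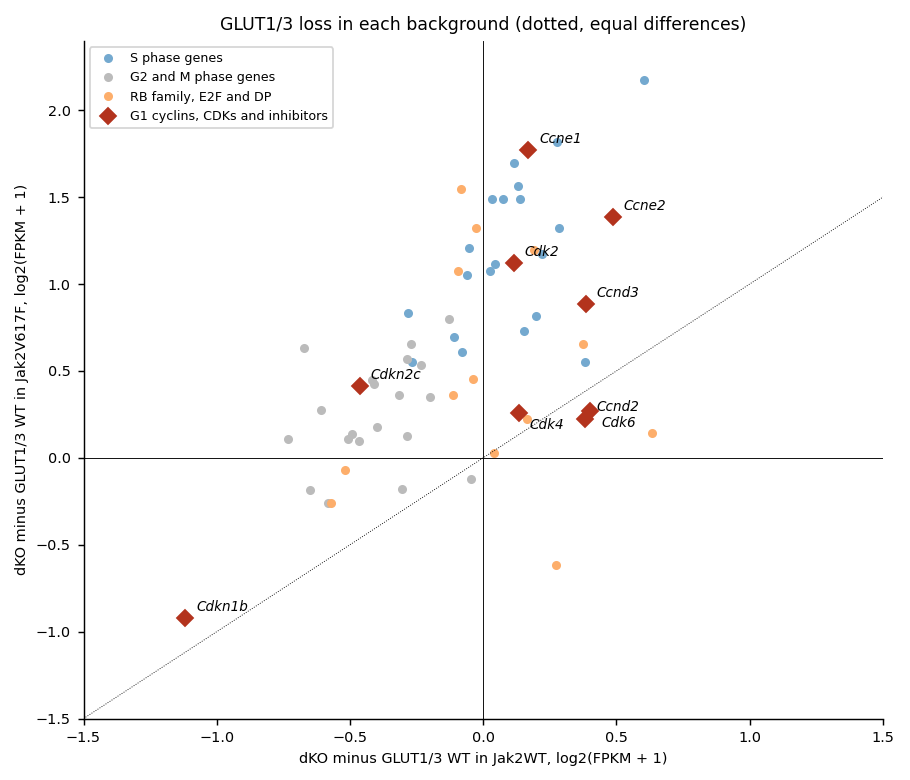
Difference on GLUT1/3 loss in Jak2WT (horizontal) and in Jak2V617F (vertical), both in log2(FPKM + 1), for the 9 tested members (red diamonds, named) and 3 gene lists; the dotted line marks equal differences. Ccne1, Ccne2 and Cdk2 stand far above the line with most S phase genes, and Cdkn1b lies near it at -1.12 and -0.92.

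The make-up of each family was described per library, without a test. Ccnd2 supplied 78.5% and 79.8% of the summed D-type cyclin FPKM in Jak2WT GLUT1/3 WT, 79.8% and 77.9% in Jak2WT dKO, 85.2% and 85.4% in Jak2V617F GLUT1/3 WT, and 80.7% and 75.0% in Jak2V617F dKO. The Jak2V617F GLUT1/3 WT clones had the highest share. Ccne1 held 51.1% to 58.7% of the summed E-type cyclin FPKM in the 4 Jak2WT libraries and 30.2% to 43.7% in the 4 Jak2V617F libraries, so that Ccne2 was the more abundant form in Jak2V617F. Cdk6 held 43.4% to 49.0% of the sum of Cdk4 and Cdk6 in Jak2WT and 27.3% to 29.5% in Jak2V617F, with no overlap between backgrounds.

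**Figure D4:**
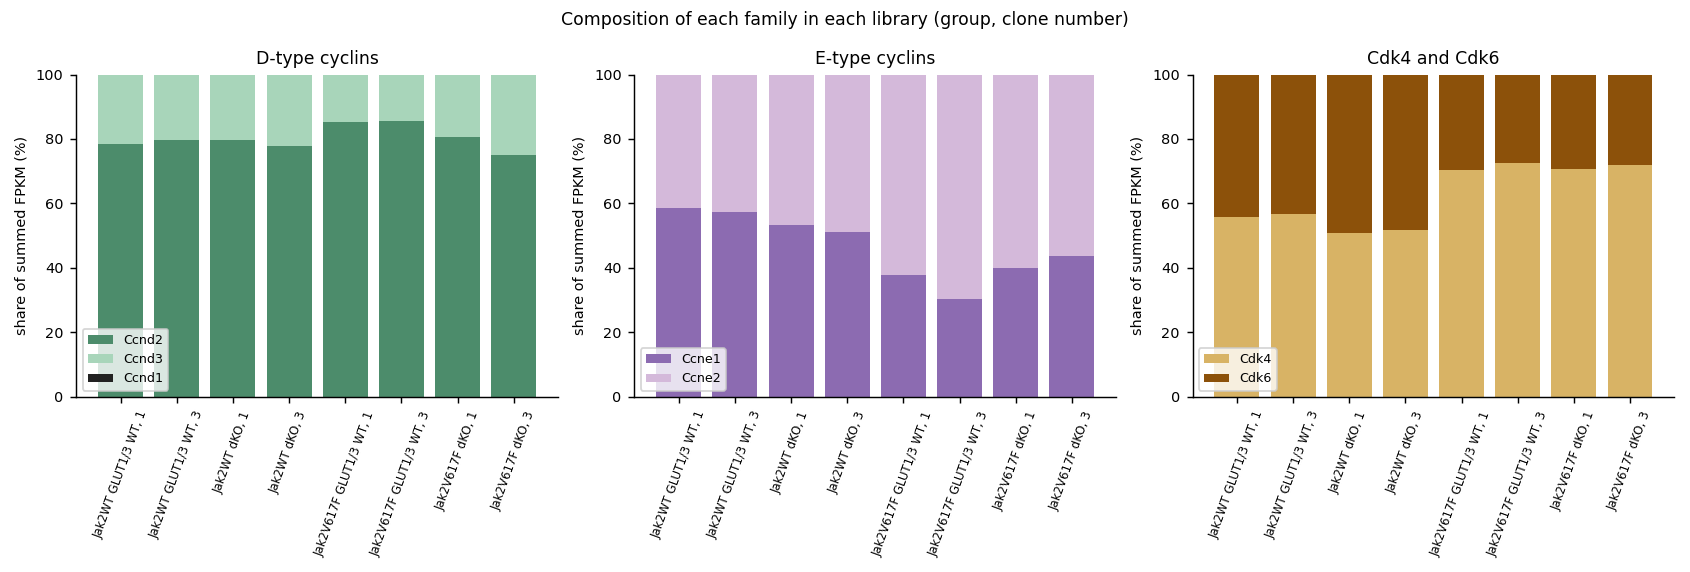
Share of summed FPKM, in percent, that each gene takes within the D-type cyclins, the E-type cyclins and the pair Cdk4 and Cdk6, with 1 stacked bar per library (group and clone number). Cdk6 takes 43.4% to 49.0% of its pair in the 4 Jak2WT libraries and 27.3% to 29.5% in the 4 Jak2V617F libraries; Ccnd1 is too small to be seen.

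Set against the inhibitor, the summed E-type cyclin FPKM was 0.518 and 0.675 times the Cdkn1b FPKM in Jak2WT GLUT1/3 WT and 1.64 and 1.67 times in Jak2WT dKO. In Jak2V617F it was 0.367 and 0.263 times with intact transporters and 2.42 and 1.48 times in the dKO. All 4 dKO libraries were above 1 and all 4 GLUT1/3 WT libraries below it. This ratio compares transcripts, and neither p27Kip1 nor cyclin E protein was measured here.

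Genes that act after or around these complexes were counted by list. Of 20 S phase genes, 20 rose on GLUT1/3 loss in Jak2V617F (background 13.7%, 18 to 20 with any 1 library left out), among them Cdc6 (2.17), Uhrf1 (1.82), Mcm4 (1.70) and Cdc45 (1.57). In Jak2WT 0 of 20 passed in limma (background 7.62% higher and 6.06% lower), a count near those shares, while 2 were higher at an unadjusted p under 0.05 and 2 by voom. With intact transporters 18 of the 20 were lower in Jak2V617F (background 14.9%), Rrm2 (-1.44), Chaf1b (-1.41), Mcm4 (-1.33) and Cdc6 (-1.25) the most. Their median difference was 1.14 on GLUT1/3 loss in Jak2V617F and 0.10 in Jak2WT, against -0.02 and 0.01 over all genes. The interaction passed for 18 of 20 S phase genes, all positive (background 4.72% positive and 5.91% negative). Most of these calls, or all of them, were lost without Jak2WT GLUT1/3 WT clone 1 or 3 or Jak2WT dKO clone 1, where the median of the 20 genes stayed at 1.03 to 1.15. In bulk RNA, a different share of cells in a phase and a different amount of RNA per cell cannot be told apart.

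Of 20 G2 and M phase genes, 9 rose on GLUT1/3 loss in Jak2V617F (background 13.7%), with Birc5 (0.80) and Aurkb (0.65) foremost, and 8 fell in Jak2WT (background 6.06%), led by Plk1 (-0.73) and Mki67 (-0.67). These counts were less firm than those of the S phase genes. The 9 became 2 without Jak2V617F GLUT1/3 WT clone 1, 5 without its clone 3 and 5 without Jak2V617F dKO clone 3. The 8 became 0 without Jak2WT GLUT1/3 WT clone 1 or 3 or Jak2WT dKO clone 1, 4 without Jak2WT dKO clone 3, and 13 without either Jak2V617F dKO clone. With intact transporters 12 of 20 were lower in Jak2V617F (background 14.9%). They were 9 without either Jak2WT GLUT1/3 WT clone, 17 without either Jak2V617F dKO clone, 16 by voom and 18 with libraries scaled to the same total.

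Of the 13 RB, E2F and DP genes, 7 rose and 1 fell on GLUT1/3 loss in Jak2V617F (6 to 8 and 1 to 2 with any 1 library left out, 2 of them lower without Jak2V617F dKO clone 3). The backgrounds were 13.7% and 16.2%, so the share that fell was below that of all genes. The risers included E2f2 (1.55), E2f7 (1.32), E2f8 (1.20) and E2f1 (1.07), of which E2f7 and E2f8 encode repressors of E2F targets. In Jak2WT, 2 rose (background 7.62%) and 2 fell (background 6.06%). Among those that rose was E2f6, at 17.4 and 17.8 FPKM in the dKO against 10.8 and 11.2 with intact transporters. Those that fell were the pocket protein genes Rbl2 (-0.57) and Rb1 (-0.52). No call of this list was left there without any 1 of the 4 Jak2WT libraries.

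Parts of the ubiquitin ligases that act on G1 cyclins and inhibitors were followed as 15 genes. On GLUT1/3 loss in Jak2V617F 5 rose and 2 fell, with Dtl (0.97), Fbxo5 (0.91) and Skp2 (0.78) highest. Over all genes 13.7% rose and 16.2% fell there, so the share of the 15 that fell was near that background. The 5 became 3 without either Jak2WT dKO clone, either Jak2V617F dKO clone or Jak2V617F GLUT1/3 WT clone 1. The 2 became 1 without that last library, and voom called 5 lower. Skp2 encodes the F-box protein that marks p27Kip1 for degradation. It lay at 4.71 and 4.80 FPKM in Jak2WT GLUT1/3 WT, 4.16 and 4.51 in Jak2WT dKO, 2.25 and 2.11 in Jak2V617F GLUT1/3 WT, and 4.41 and 4.55 in Jak2V617F dKO. Only the Jak2V617F clones with intact transporters were low, where Skp2 fell by 0.85 against Jak2WT (limma adjusted p = 0.000923). In Jak2WT 2 of the 15 fell on GLUT1/3 loss (background 6.06%), Fzr1 (-0.42) and Ambra1 (-0.33), and neither call was left without any 1 of the 4 Jak2WT libraries. Of 9 genes for CDK activation and partners, 2 rose and 1 fell on GLUT1/3 loss in Jak2V617F: Cdc25a (1.00), a phosphatase that activates CDK2, Cdk1 (0.52) and Mnat1 (-0.50). These shares were near the background of 13.7% and 16.2%. With 1 library left out, 1 rose and 0 fell without Jak2V617F GLUT1/3 WT clone 1, 1 and 1 without its clone 3, 3 and 1 without Jak2V617F dKO clone 1, and 2 and 3 without its clone 3. In Jak2WT 0 of these 9 passed in limma (background 7.62% higher and 6.06% lower), a count near those shares, with 1 higher at an unadjusted p under 0.05 and 1 by voom.

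Of the 5 other CDK inhibitor genes, 3 passed the filter. Cdkn2d, which encodes p19Ink4d, read 15.6 and 13.3 FPKM in Jak2WT GLUT1/3 WT, 10.4 and 9.23 in Jak2WT dKO, 13.7 and 12.9 in Jak2V617F GLUT1/3 WT, and 21.3 and 17.0 in Jak2V617F dKO. Like Cdkn2c, it fell in Jak2WT (-0.51, limma adjusted p = 0.0400) and rose in Jak2V617F (0.49, limma adjusted p = 0.0259) on GLUT1/3 loss. The call in Jak2WT was lost without any 1 of the 4 Jak2WT libraries or either Jak2V617F GLUT1/3 WT clone, and that in Jak2V617F without either Jak2V617F GLUT1/3 WT clone or dKO clone 1. Cdkn1a, which encodes p21Cip1, lay between 50.7 and 66.9 FPKM in all 8 libraries and passed in no comparison. Cdkn2b, which encodes p15Ink4b, lay at 0.630 to 1.36 FPKM in the 4 Jak2WT libraries, at 5.51 and 4.15 in Jak2V617F GLUT1/3 WT and at 12.1 and 2.25 in Jak2V617F dKO. All 4 Jak2V617F libraries were above the Jak2WT ones, with mean FPKM ratios of 3.96 with intact transporters and 8.20 in the dKO, and neither difference passed (limma adjusted p = 0.0973 and 0.0646). The ratio in the dKO rests mostly on Jak2V617F clone 1. Among dKO clones voom called 2 of the tested inhibitor genes higher in Jak2V617F, against 1 in the main fit. Cdkn2a stayed at or below 0.225 FPKM and Cdkn1c is listed at 0.

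Markers of other blood lineages moved with the groups. Summed over 11 erythroid markers, the level was 94.0 to 112 FPKM in Jak2WT GLUT1/3 WT, 246 to 291 in Jak2WT dKO, 553 to 910 in Jak2V617F GLUT1/3 WT and 2582 to 4679 in Jak2V617F dKO. The group means of Ccnd2 stood in the same order. In both Jak2V617F groups clone 1 exceeded clone 3 in Ccnd2 and also in Hba-a1, at 709 against 430 and 2007 against 993 FPKM. In the Jak2WT dKO the genes went opposite ways, with Ccnd2 at 54.3 in clone 1 and 51.6 in clone 3 and Hba-a1 at 177 and 224. In Jak2WT GLUT1/3 WT clone 3 was the higher in both, at 39.2 and 41.5 for Ccnd2 and 46.7 and 66.3 for Hba-a1. The erythroid sum was mostly globin (Hba-a1, Hbb-bs), while Alas2 and Slc4a1 stayed at or below 0.312 FPKM in every library. On GLUT1/3 loss 2 of the 7 tested erythroid markers rose in Jak2WT (background 7.62%), and in Jak2V617F 5 rose (background 13.7%) and Gata1 fell (-0.50). The 1 of 7 that fell was near the background of 16.2%. The 2 became 1 without any 1 of the Jak2WT libraries. The 5 became 3 without any 1 of the Jak2WT libraries or Jak2V617F GLUT1/3 WT clone 3, and 2 without Jak2V617F dKO clone 1. Gata1 no longer passed without Jak2V617F GLUT1/3 WT clone 1 or dKO clone 3. Among megakaryocyte markers, Itga2b read 62.2 and 61.3 FPKM in Jak2WT GLUT1/3 WT, 80.4 and 87.0 in Jak2WT dKO, 169 and 179 in Jak2V617F GLUT1/3 WT, and 184 and 172 in Jak2V617F dKO. Its group means stood in the order of those of Ccnd2 too, but for both genes the Jak2V617F groups overlapped. In Jak2V617F GLUT1/3 WT, clone 3 was the higher in Itga2b and clone 1 in Ccnd2. Pf4 was at 28.2 and 2.03 FPKM in the Jak2V617F dKO clones and at or below 0.326 elsewhere, while Vwf stayed at or below 0.00895 and Gp1bb is listed at 0. The summed 9 myeloblast and promyelocyte markers were 196 to 247 FPKM in the GLUT1/3 WT groups, 160 to 197 in Jak2WT dKO and 89.1 to 92.0 in Jak2V617F dKO. The sum of 3 macrophage markers was 21.9 to 26.4 in Jak2V617F dKO and 52.2 to 72.9 elsewhere. It was mostly Adgre1, at 16.3 and 20.3 FPKM in Jak2V617F dKO, 64.3 and 46.6 in Jak2V617F GLUT1/3 WT and 47.6 to 59.5 in Jak2WT. Cd68 read 5.61 and 6.06 in Jak2V617F dKO, 3.79 and 5.52 in Jak2V617F GLUT1/3 WT and 6.51 to 16.1 in Jak2WT. Csf1r stayed at or below 0.0523 in every library. Among 7 mast cell and basophil markers, summed at 122 to 222 FPKM, Cpa3 was at 50.8 to 101 in Jak2WT and at most 1.67 in Jak2V617F, while Kit is listed at 0. Gata2, the other tested gene of that list, went the other way with intact transporters, at 123 and 124 FPKM in Jak2WT and 163 and 156 in Jak2V617F. In the dKO it read 120 and 116 in Jak2WT and 162 and 119 in Jak2V617F. The part of these shifts in the members' differences was not tested. None of the B cell, T cell and stromal markers reached 1 FPKM in any group.

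For each tested member, the 2 genes of all 11818 with the most similar profile over the 8 libraries were named by Pearson r of log2(FPKM + 1), as a description. Mcm4 (r = 0.996) and Pold1 (r = 0.993), of the replication machinery, were most like Cdk2, and Fam111a (r = 0.997) and Tuba4a (r = 0.996) most like Ccne1. For Ccne2 they were Stk10 (r = 0.982) and the histone mRNA-binding gene Slbp (r = 0.980). Haus4 (r = 0.986) and Cks1b (r = 0.985) came closest to Cdk4, and Gm32857 (r = 0.993) and Gnptab (r = 0.990) to Cdk6. Ccnd2 was matched by Smap1 (r = 0.993) and Eif6 (r = 0.992), and Ccnd3 by Crtc1 (r = 0.990) and Gimap9 (r = 0.986). Nearest to Cdkn1b were Abhd18 (r = 0.993) and Pik3ip1 (r = 0.989), and to Cdkn2c Cbx6 (r = 0.968) and Pwwp3a (r = 0.965). The 8 libraries fall into 4 groups, so a shared group pattern alone gives high values.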

How the data were processed

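RNA sequencing of 8 libraries of 32D clones was used, with each column assigned to its group by the sample titles and 0 columns left out. Per the study's methods, the authors cleaned reads with fastp 1.0.1, aligned them to mm39 with HISAT2 2.2.1, counted them per gene with featureCounts 2.0.6 and deposited FPKM, which divides reads by gene length and library total. The annotation version, strand setting and total are not given in the sources used here. FPKM multiplied by gene length came out in whole steps in each library (100% of values within 0.01), from which reads per gene were recovered.

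Genes at 1 FPKM or more in at least 2 of 8 libraries were tested with limma 3.58.1 in R 4.3.3, two-sided, on log2(FPKM + 1). One mean per group was fitted over all 4 groups, with the empirical Bayes trend (4 residual and 3.34 prior degrees of freedom), and p-values were adjusted by Benjamini-Hochberg over all 11818 genes at a threshold of 0.05. Fold values are ratios of mean FPKM. For 2 against 2 clones, an exact permutation test cannot go below p = 0.333. The gene test was also run on simulated counts. They had the same set spread for every gene, which need not match that between these clones, so they do not vouch for the calls above.

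The members and gene lists were chosen with earlier results of these data known. All members are named in each comparison, as are Slc2a1, Slc2a3 and Jak2. From other lists at most 4 genes per comparison are named, those called with the largest difference and no overlap between clones. Cdkn2b, the remaining inhibitors, Gata2, Adgre1, Cd68 and the marker genes at or near 0 were named after their values were seen, as was Skp2 by library. The alternatives tried were other pseudocounts, filters, empirical Bayes settings and scalings, voom on the recovered reads, fits restricted to the compared groups, a block of clone numbers, and leaving out each library. Some genes are not reported here.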

Additional observations from a re-analysis of the deposited data

Results flagged for a closer look

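For 4 members the effect of GLUT1/3 loss in Jak2V617F differed from that in Jak2WT by the test of the interaction. The difference between effects, on the log2(FPKM + 1) scale, was 1.60 for Ccne1, 0.90 for Ccne2, 1.01 for Cdk2 and 0.87 for Cdkn2c. For Cdkn2c the effect was below 0 in Jak2WT and above 0 in Jak2V617F, and for the other 3 it was above 0 in both, though it passed in Jak2V617F alone. Each of these differences lost its call when single Jak2WT libraries were left out. With 2 clones a group, no group could be searched for an outlying sample.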

How the results depend on the processing

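The counts of members called moved most where calls were few. On GLUT1/3 loss in Jak2WT the count of 2 became 1 with no filter, 5 with voom, 6 in a fit of the compared groups alone, and 0 to 1 with a Jak2WT library left out. For Jak2V617F against Jak2WT in dKO the count of 3 became 5 with voom and 1 to 5 with a library left out. The 4 interactions became 1 with no filter and 0 to 2 without a Jak2WT library. Fewer libraries leave fewer degrees of freedom. The counts of 6 in the other 2 comparisons stayed within 1.5 times in every setting. Of 810 recomputed differences of the members, 709 kept their direction and side of the threshold, 29 newly passed, 60 no longer did and 12 turned sign. Of 90 recomputed counts of members called, 17 moved by over 1.5 times.

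Signs turned only for differences that did not pass. With libraries scaled to the same total, Ccnd3 between backgrounds with intact transporters became -0.050, Ccne1 between dKO clones 0.012, and the interactions of Ccnd2 and Cdk6 0.033 and 0.058. With single libraries left out, the range between backgrounds with intact transporters was -0.065 to 0.25 for Ccnd3 and -0.21 to 0.0048 for Cdkn1b. Between dKO clones it was -0.13 to 0.085 for Ccne1, -0.072 to 0.26 for Cdkn1b and -0.074 to 0.20 for Cdkn2c. For the interaction it was -0.37 to 0.053 for Ccnd2 and -0.034 to 0.28 for Cdk4. The cause was not tested.

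The same-total scaling moved the median of all genes to -0.12 between backgrounds with intact transporters and to 0.12 for the interaction. The share of higher among called genes went from 55.7% to 33.9% on GLUT1/3 loss in Jak2WT, from 45.7% to 60.2% in Jak2V617F, from 50.7% to 29.4% between backgrounds with intact transporters and from 44.4% to 75.0% for the interaction. Genes called lower on GLUT1/3 loss in Jak2WT went from 716 to 1378, and to 1091 with voom, which called 1248 higher.

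The clone numbers come from the sample titles and were taken as names within a group. The study's list of edits numbers its clones across the groups of a background. Deviations of like-numbered clones correlated at -0.254 to 0.152 between groups, and no pairing was used in the main fit. Whether like-numbered clones shared handling was not tested. With the number as a replicate block the count on GLUT1/3 loss in Jak2WT became 1, that of the interaction 3, and the others 6, 6 and 3. Between dKO clones the 3 were not the same genes, since Ccne2 no longer passed and Ccnd2 newly did. With crossed numbers, chosen after seeing the data, the comparison of backgrounds with intact transporters gave 6.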

Other observations

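Of 10 STAT5 and cytokine target genes, 5 were higher and 1 was lower in Jak2V617F with intact transporters, where 15.3% and 14.9% of all genes were. The 5 became 3 without clone 1 of Jak2WT GLUT1/3 WT or of Jak2V617F GLUT1/3 WT, and the 1 became 2 without either Jak2WT dKO clone or with libraries scaled to the same total. Those with the largest differences were Pim2 (1.26), Bcl2l1 (1.25) and Pim1 (0.70), which encode survival proteins, and Socs1 (-1.66), which encodes a feedback inhibitor of JAK signalling. On GLUT1/3 loss in Jak2V617F 5 rose and 3 fell, against 13.7% and 16.2% of all genes. In Jak2WT 2 rose and 0 fell in limma, against 7.62% and 6.06% of all genes, with 0 lower at an unadjusted p under 0.05 and 0 lower by voom. In Jak2V617F 2 rose and 0 fell without GLUT1/3 WT clone 1, 2 and 2 without its clone 3, 1 and 3 without dKO clone 1, and 6 and 1 without dKO clone 3. In Jak2WT the 2 became 0 without GLUT1/3 WT clone 3, 1 without any 1 of the other Jak2WT libraries, 3 without either Jak2V617F dKO clone, and 4 by voom. Ccnd2, which cytokine signals also induce, was higher in Jak2V617F with intact transporters by 0.70, a call that some alternative settings ended. Whether cytokine signalling had a part in that difference was not tested.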
